A study of Mus musculus with 50 samples.

Results

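The transcripts described here are 192 long noncoding RNAs (lncRNAs, transcripts annotated without a protein product) whose level rose between the late 1-cell and late 2-cell stages of uninjected mouse embryos. They were chosen from 6971 rows that the deposited table gives the Ensembl biotype lncRNA, among 35750 rows in all. A row was a member if its mean over the uninjected late 2-cell libraries was at least 20 CPM (counts per M, the value relative to the library total), and if that mean plus 1 was at least 4 times the late 1-cell mean plus 1. H19, Airn, Kcnq1ot1, Meg3 and Rian were left out by the rule. The uninjected libraries therefore chose the members, and their rise in those embryos is a description only. The comparisons tested below are between embryos that the rule did not use, although at late 1C and late 2C the uninjected libraries also entered the estimate of spread and the filter on low values. Levels in mCherry embryos were close to those in uninjected embryos, so their gain by late 2C is a description too. The choice also favours lower calls where Duxbl embryos are compared with mCherry embryos at late 2C. Just inside the 20 CPM limit were 4930458D05Rik at 20.16 CPM, Gm38407 at 20.21 CPM and Gm16145 at 20.3 CPM. Rbm3os at 19.47 CPM, Gm20508 at 19.45 CPM and Gm32885 at 19.44 CPM were just outside. At the 4 times limit, 1700008J07Rik (4.041 times), 2610507I01Rik (4.227) and Gm48591 (4.241) were inside, and Gm33969 (3.913), 2810029C07Rik (3.891) and Gm15762 (3.808) were outside.

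The study injected wild-type C57BL6/J zygotes 24 h after hCG, the hormone that triggers ovulation, with mRNA at 200 ng/µl. Duxbl embryos received mRNA for V5-tagged Duxbl joined through a 2A peptide to nuclear mCherry. The control mCherry embryos received mRNA for nuclear mCherry, and a further group was not injected. Embryos came from females of 3 to 12 weeks and were pooled, 5 to a tube, at 28 to 30 h (late 1C), 32 h (early 2C) and 48 h (late 2C) after hCG. The uninjected and mCherry groups held 6 libraries at each stage, and the Duxbl group held 4, 5 and 5 libraries in stage order. The labels do not say whether replicate tubes came from separate collections, so p-values measure the spread between these tubes.

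The mouse embryo begins with RNA stored by the oocyte. Its own genome is switched on in a minor wave in the zygote and a major wave in the 2-cell embryo, while the stored RNA is degraded. Dux, a double homeobox transcription factor, activates genes and repeats of the 2-cell stage, and Duxbl is a related double homeobox protein. Many lncRNAs are transcribed in that window. Some host small nucleolar RNAs (snoRNAs) in their introns, some act in nuclear bodies, and many start beside a protein-coding promoter and run away from it on the opposite strand.

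Of the 192 lncRNAs, 44 carry a named symbol and 148 a Gm number or clone name. They lie on 20 chromosomes, with 19 on chromosome 7, 16 on chromosome 11 and 6 on X. Their exonic length had a median of 1587.5 bases and ran from 196 to 20771, and 17 had a single exon. In orientation, 55 started within 1000 bases of a protein-coding gene on the opposite strand (head to head), 43 overlapped their nearest protein-coding gene otherwise, and 94 did neither. The libraries do not mark strand, and the spans of 100 of the 192, introns included, overlap another row of the table. Where exons overlap, reads of the member and of the other row cannot be told apart. Overlap of exons was not examined.

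Promoters show how mixed the group is. RefSeq promoters (250 bases before to 50 after the start, GRCm38.p6) were found for 101 of the lncRNAs, 109 promoters in all. Their median CpG count was 19, against 7 over all 32851 RefSeq promoters, 21 over promoters of protein-coding genes that pass the same rule of gain, and 5 over those of other lncRNAs. Head-to-head members had a median of 26 CpGs in 38 promoters, and members neither head to head nor overlapping had 8.5 in 52. Motifs were searched on both strands. The GC box GGGCGG was in 56.9% of the members' promoters and 35.7% of all promoters. The ETS motif CCGGAAG was in 12.8% and 8.86%, the TATA box TATAAA in 10.1% and 13.6%, and the homeobox core TAATCC in 8.26% and 7.06%. A double homeobox motif was searched too, and was in 0% of the members' promoters and 0.0335% of all promoters. At that rarity its absence from 109 promoters says little. In head-to-head members the GC box was in 78.9% and the ETS motif in 23.7%.

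Promoters of 6 lncRNAs that the results below turn on are printed to show that range, with motif matches in capitals. B020004C17Rik, the most abundant member at late 2C, has a TATA box that reads on both strands (chr14:57014884-57015183, plus strand) and 3 CpGs. Gm40910, among the 10 members furthest below mCherry embryos in Duxbl embryos at late 2C, has no match (chr13:35078239-35078538, plus strand) and 3 CpGs. Gm33508, a head-to-head member that was also far lower in Duxbl than in mCherry embryos, has 2 GC boxes (chr17:24533645-24533944, plus strand) and 19 CpGs. Gas5, a snoRNA host, is shown at the downstream of its 2 RefSeq starts with 3 GC boxes (chr1:161034916-161035215, plus strand) and 19 CpGs. Snhg15, another host, has 1 GC box, 1 TAATCC match on the reverse strand and 29 CpGs (chr11:6528711-6529010, minus strand). Malat1, the member furthest above mCherry embryos in Duxbl embryos at late 2C, has no match and 10 CpGs (chr19:5802623-5802922, minus strand).
B020004C17Rik: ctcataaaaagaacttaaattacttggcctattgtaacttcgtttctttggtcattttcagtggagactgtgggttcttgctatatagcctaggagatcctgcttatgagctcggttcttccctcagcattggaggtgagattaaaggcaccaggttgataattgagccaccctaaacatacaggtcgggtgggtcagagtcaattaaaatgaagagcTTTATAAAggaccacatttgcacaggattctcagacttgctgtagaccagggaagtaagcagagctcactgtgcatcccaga
Gm40910: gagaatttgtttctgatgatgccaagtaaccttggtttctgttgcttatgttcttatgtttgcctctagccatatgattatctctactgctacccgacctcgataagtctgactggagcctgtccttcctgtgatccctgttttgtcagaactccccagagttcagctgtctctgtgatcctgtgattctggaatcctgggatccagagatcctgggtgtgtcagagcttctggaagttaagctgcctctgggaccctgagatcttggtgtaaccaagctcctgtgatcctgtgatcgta
Gm33508: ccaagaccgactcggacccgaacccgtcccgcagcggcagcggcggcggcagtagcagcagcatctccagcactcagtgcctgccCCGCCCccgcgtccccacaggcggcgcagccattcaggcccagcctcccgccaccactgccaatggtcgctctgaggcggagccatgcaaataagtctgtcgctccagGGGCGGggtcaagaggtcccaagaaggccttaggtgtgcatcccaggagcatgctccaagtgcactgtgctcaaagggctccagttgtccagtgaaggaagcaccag
Gas5: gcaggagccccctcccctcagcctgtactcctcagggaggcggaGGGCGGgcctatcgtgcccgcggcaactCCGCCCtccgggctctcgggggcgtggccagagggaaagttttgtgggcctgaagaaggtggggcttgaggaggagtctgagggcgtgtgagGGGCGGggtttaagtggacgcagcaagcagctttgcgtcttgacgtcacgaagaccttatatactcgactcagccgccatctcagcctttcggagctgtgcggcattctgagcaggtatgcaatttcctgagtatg
Snhg15: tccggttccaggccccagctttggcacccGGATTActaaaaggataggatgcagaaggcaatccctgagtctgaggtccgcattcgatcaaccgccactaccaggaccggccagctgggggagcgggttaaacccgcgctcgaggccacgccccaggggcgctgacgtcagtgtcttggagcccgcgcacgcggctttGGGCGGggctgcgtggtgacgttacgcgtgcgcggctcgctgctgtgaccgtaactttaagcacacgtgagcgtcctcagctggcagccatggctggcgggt
Malat1: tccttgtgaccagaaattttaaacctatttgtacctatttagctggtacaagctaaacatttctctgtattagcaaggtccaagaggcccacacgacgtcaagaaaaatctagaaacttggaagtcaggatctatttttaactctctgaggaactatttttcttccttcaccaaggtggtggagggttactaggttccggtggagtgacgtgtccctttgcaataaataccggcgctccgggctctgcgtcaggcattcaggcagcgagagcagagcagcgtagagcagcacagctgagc

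Deposited totals ran from 12.04 to 26.96 M per library. Approximate depth, estimated from the smallest step between low values, ran from about 13 to 40.7 M reads. At late 2C it averaged 17.1 M for Duxbl libraries, beside 19.7 M for mCherry and 20.8 M for uninjected ones. Levels below are CPM after each total was corrected by a trimmed-mean factor. Differences are in log2(CPM + 1), where transcripts of low level appear to change less than they did. Calls are at an adjusted p under 0.05 (limma, Benjamini-Hochberg over all genes tested). Markers were fixed for the embryo's own stages and for other sources of RNA. At late 2C, 6 genes of the 2-cell stage summed to 17.3 to 146.6 CPM in Duxbl and 865.1 to 2296 CPM in mCherry embryos. The 6 oocyte and zygote genes summed to 2231 to 3151 in Duxbl against 492.8 to 1103 CPM in mCherry embryos. At late 2C, 7 of 8 cumulus genes were in the table and summed to 13.97 to 51.76 in Duxbl (Inhba at 0) against 9.524 to 17.29 CPM. Oviduct genes (6 of 6) summed to 77.64 to 179.9 against 47.55 to 159.2 CPM, sperm genes (6 of 6) to 4.077 to 31.4 against 3.202 to 9.963 CPM (Smcp at 0 in mCherry), and blood genes (4 of 6) to 0 to 5.415 against 10.66 to 21.12 CPM (Pf4 at 0 in both). From late 1C to late 2C the median oviduct sum went from 8.145 to 108.7 CPM in mCherry and 7.828 to 122.5 CPM in Duxbl embryos. The median blood sum went from 0.9392 to 15.03 CPM in mCherry and 2.769 to 0.9562 CPM in Duxbl embryos. The part of these markers, and of the lower Duxbl depth, in the results at late 2C was not tested. In pools of embryos, fewer cells expressing a transcript and less of it per cell cannot be told apart.

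In control embryos the lncRNAs made up little of the RNA at late 1C, hardly more at early 2C, and a large share of all lncRNA at late 2C. Their summed level in mCherry embryos was 693 ± 45.9 CPM at late 1C (SD, n = 6), 1032 ± 171 at early 2C (n = 6) and 11380 ± 1090 at late 2C (n = 6). Uninjected embryos had 688 ± 42.9, 1062 ± 245 and 11920 ± 1913 CPM (n = 6 at each stage). Every late 2C control library, from 9466 CPM up, was above every earlier library, of which the highest was 1462 CPM. At late 2C the 192 rows held 39.63% of all lncRNA CPM in mCherry embryos (35.13% to 50.02%), against 1.536% at late 1C. That total itself was lower, at 28990 CPM against 45150 CPM at late 1C, so the share rose by more than the members' sum. The number of members with a group mean over 20 CPM was 6 at late 1C, 12 at early 2C and 156 at late 2C in mCherry embryos. Levels in mCherry and uninjected embryos were close. The median log2 ratio of mCherry to uninjected means was 0.0065 at late 1C and -0.039 at late 2C, and 192 and 191 of the members were within 2-fold at those stages. These 2 stages were not tested, because their uninjected libraries chose the members. At early 2C, where they did not, 0 of 179 tested members were called between mCherry and uninjected embryos (limma, background 0% of 21180 genes in either direction), 5 had an unadjusted p under 0.05, and voom weights also gave 0.

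**Figure D1:**
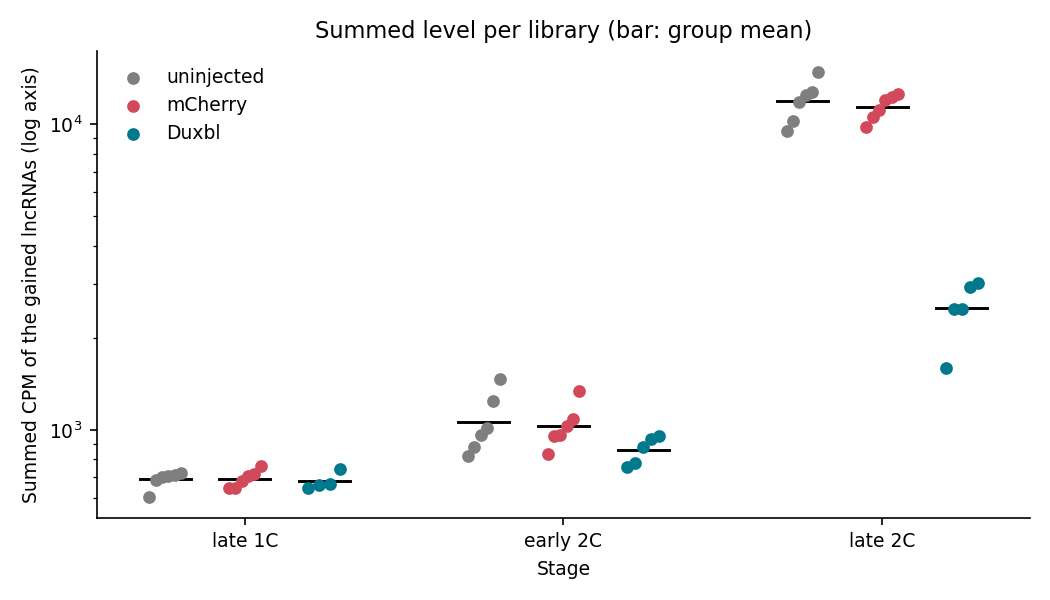
Summed CPM of the 192 lncRNAs in each library (log axis), by stage and group, with points ordered by value within a group and a bar at the group mean. Uninjected and mCherry embryos reach 9466 to 14820 CPM at late 2C, and the 5 Duxbl libraries lie between 1593 and 3013 CPM.

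From late 1C to early 2C a small set moved first in mCherry embryos. Members were chosen for a low level at late 1C relative to late 2C in uninjected embryos, which mCherry embryos resembled. That choice favours higher over lower calls in this step. Of the 192 members, 16 were called higher and 0 lower (limma; background 0.574% of 26995 genes higher and 0.733% lower), with a median difference of 0.31 over all members. F730035P03Rik (ENSMUSG00000053360, mm39 chromosome 7, 99429208 to 99430746, minus strand), a clone-named lncRNA without an overlapping row, led them. It stood at 0, 1.064 and 2.606 CPM (lowest, median and highest mCherry library) at late 1C and at 15.59, 31.34 and 60.19 CPM at early 2C. Its groups did not overlap, and it rose by 3.87 (SE 0.477, adjusted p = 9.28e-06). Gm33466 rose by 3.11 (1.64 ± 1.1 to 22.9 ± 12.3 CPM, adjusted p = 0.00236) and Gm14742 by 2.84 (0.16 ± 0.21 to 9.49 ± 8.06 CPM). B020004C17Rik rose by 2.17 (3.72 ± 2.76 to 21.4 ± 14.9 CPM). Others were Gm13068 (1.52), Gm13191 (1.68), Gm47510 (1.83), Gm44693 (1.78) and Gm44736 (1.70), all at a mean under 6 CPM at early 2C. Snhg4, a snoRNA host, rose by 1.69 (0.84 ± 0.71 to 4.72 ± 1.64 CPM), the only member among 15 snoRNA hosts that was called in this step. Snhg4 overlaps a second row of the same symbol, so its reads may be divided between the rows.

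The main gain came between early and late 2C. In mCherry embryos 190 of 192 members were called higher and 0 lower (limma; background 32.1% of 26995 genes higher and 27.4% lower), with a median rise of 3.18. Over the whole course from late 1C to late 2C, 192 were called higher (background 32.5% higher and 28% lower). Levels in mCherry embryos were close to those of the uninjected embryos that chose the members. These counts thus largely follow from that choice and are a description. From early to late 2C the 2 not called were F730035P03Rik (0.56, adjusted p = 0.329), which was already up at early 2C, and EU599041 (0.67, adjusted p = 0.0765). B020004C17Rik (ENSMUSG00000096144, mm39 chromosome 14, 57252591 to 57256439, plus strand) rose from 21.4 ± 14.9 to 1313 ± 389 CPM (n = 6 each) and alone made up 11.54% of the summed level at late 2C. Next were Gm33508 at 411 ± 219 CPM, Gm49064 at 333 ± 159, Gm33466 at 317 ± 85.9 and Gas5 at 299 ± 66.9 CPM. Gas5, a snoRNA host whose RNA is degraded when translation is active, was the most abundant member in every group at late 1C and early 2C. Per kilobase of exon, the highest mCherry late 2C levels were B020004C17Rik at 550.6 CPM per kb, Gm47979 at 448.4, Gm29290 at 398.2 and Gm5 at 376.3. On that scale Gas5 had 79.51 and Malat1, a long nuclear RNA, 17.96 CPM per kb.

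At late 1C no difference in these lncRNAs between Duxbl and mCherry embryos passed the test. Of 164 members that passed the filter on low values, 0 were called (limma; background 0.00481% of 20777 genes higher and 0.0144% lower), 18 had an unadjusted p under 0.05, and voom weights also gave 0. The median difference was -0.055, beside -0.056 for protein-coding genes that pass the same rule of gain. The lowest was Gm8016 at -1.67 (adjusted p = 0.427), with 3 ± 2.03 CPM in mCherry (n = 6) and 0.0859 ± 0.0791 CPM in Duxbl embryos (n = 4). Values of Duxbl and mCherry libraries did not overlap in 4 members, all lower in Duxbl, beside 0.64% of all genes tested that were lower and 0.876% that were higher.

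At early 2C a few members were lower in Duxbl embryos. Of 179 tested, 5 were called lower and 0 higher (limma; background 0.397% of 21180 genes lower and 0.0236% higher), 13 had no overlap of values and were lower (background 0.873%), 0 had none and were higher (background 0.161%), and the median was -0.11. Of gained protein-coding genes, 27 of 2131 were called lower and 1 higher. F730035P03Rik again showed the largest difference. Its Duxbl libraries stood at 5.4, 3.719, 2.428, 2.822 and 2.04 CPM, and its mCherry libraries at 15.59, 31.34 and 60.19 CPM (lowest, median, highest). Every Duxbl value was under every mCherry value, and the difference was -2.89 (SE 0.297, adjusted p = 1.14e-05), called under all 21 alternatives tried. Gm8016 stood at 0.4252, 0.7785, 0.08829, 0.171 and 0.4996 CPM in Duxbl and 3.61, 5.39 and 13.46 CPM in mCherry libraries, a difference of -2.43 (SE 0.387, adjusted p = 0.00186). Gm13191 (-1.95, adjusted p = 0.0137), Gm47510 (-1.75, adjusted p = 0.0272) and Gm44736 (-1.48, adjusted p = 0.0282) were all under 1 CPM on average in Duxbl embryos. Of 21 alternatives, the call was lost in 14 for Gm44736, 12 for Gm47510, 3 for Gm13191 and 2 for Gm8016. Gm8016 lost it with voom weights (adjusted p = 0.322) and with a pseudocount of 5 CPM (0.0791). Without mCherry early 2C replicate 6, for example, Gm13191 (adjusted p = 0.0508), Gm47510 (0.0825) and Gm44736 (0.0563) were no longer called. None of 15 snoRNA hosts and none of 54 head-to-head members tested was called, while 5 of 88 members neither head to head nor overlapping were.

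At late 2C most of the gain seen in mCherry embryos was not present in Duxbl embryos. The summed level was 2501 ± 564 CPM (n = 5) against 11380 ± 1090 CPM (n = 6), 4.55-fold lower, and the 5 Duxbl libraries held 2933, 1593, 3013, 2489 and 2478 CPM. Of 192 members, 171 were called lower and 4 higher, and 17 were not called (limma; background 30.1% of 23052 genes lower and 25.6% higher). Members were chosen for a high late 2C level in uninjected embryos, which mCherry embryos resembled. That choice favours lower over higher calls, and the background genes were not chosen so. All 192 passed the filter on low values, which the mCherry or uninjected libraries alone can meet. With only the Duxbl and mCherry libraries in the fit, 169 were lower and 4 higher. The median difference was -3.17 (quartiles -4.05 and -1.97), beside -0.10 over all genes tested, and 170 members were lower by at least 2-fold. Values did not overlap and were lower in Duxbl in 134 members (background 19.8%), and higher in 2 (background 14.8%). Members over 20 CPM numbered 31 in Duxbl and 156 in mCherry embryos. The other 3222 lncRNAs tested, not chosen for a gain, differed: 1069 were called higher and 535 lower, with a median of 0.36. With library totals as the only scaling, the median of all genes moved to -0.26 (4957 higher and 7510 lower, against 5908 and 6933), and 174 members were lower and 3 higher with a median of -3.42.

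**Figure D2:**
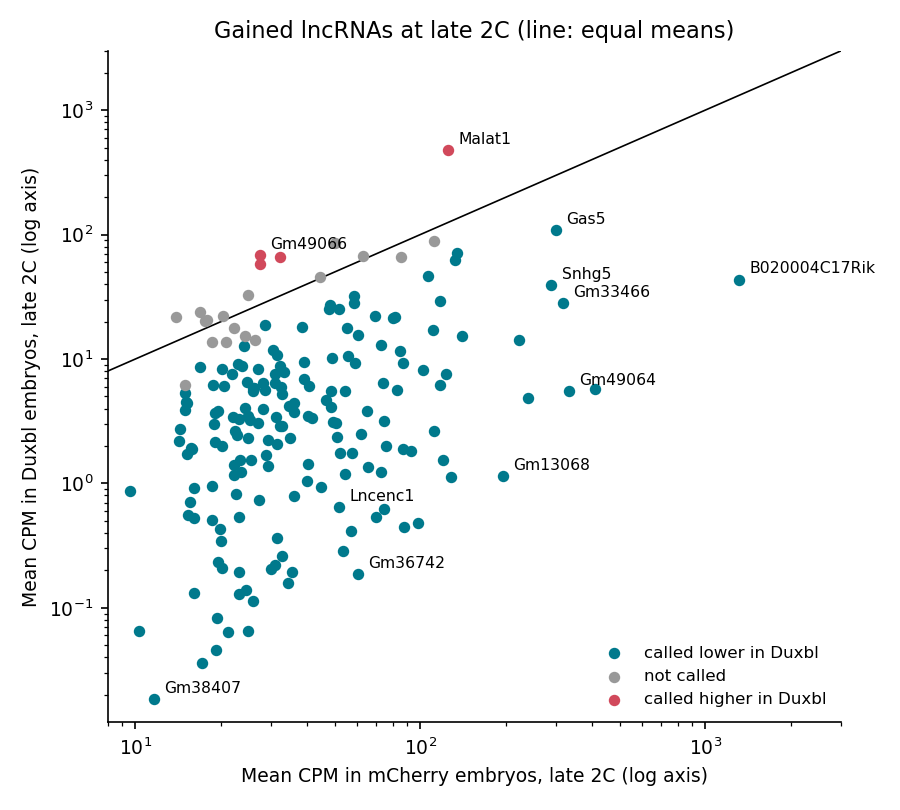
Mean CPM of each of the 192 lncRNAs at late 2C in mCherry (x axis) and Duxbl embryos (y axis), both on log axes, coloured by call, with a line of equal means. Most points lie below the line, 171 of them called lower, and Malat1 has the highest Duxbl mean, 476 CPM.

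Gm13068 (ENSMUSG00000085403, mm39 chromosome 4, 149832975 to 149834064, plus strand) was the furthest below its mCherry level. Its mCherry libraries ran from 94.77 over a median of 201.7 to 261.4 CPM, and its Duxbl libraries held 1.14, 0.765, 0.5291, 0.9841 and 2.317 CPM. The groups were far apart, with a difference of -6.49 (SE 0.329, adjusted p = 2.56e-12). Gm13068 overlaps another row of the table. Gm49064 (ENSMUSG00000114771, mm39 chromosome 13, 67375061 to 67378033, minus strand), which overlaps none, ran from 198.8 over 248.4 to 572.2 CPM in mCherry libraries and held 1.188, 4.829, 1.443, 14.67 and 5.435 CPM in Duxbl libraries (difference -5.94, SE 0.435, adjusted p = 2.62e-10). It was among the few members over 20 CPM before the gain, at 37.7 ± 4.83 CPM in mCherry and 28.5 ± 5.4 CPM in Duxbl embryos at late 1C. From late 1C to late 2C it fell in Duxbl embryos, by 2.54 (SE 0.373, adjusted p = 9.82e-07).

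Gm33508 (ENSMUSG00000117423, mm39 chromosome 17, 24752836 to 24765505, plus strand) ran from 59.64 over 391.1 to 668.1 CPM in mCherry libraries and held 5.89, 3.251, 6.494, 5.014 and 8.242 CPM in Duxbl libraries (difference -5.65, SE 0.574, adjusted p = 3.28e-08). All 5 Duxbl values were below the lowest mCherry value. B020004C17Rik ran from 821.6 over 1357 to 1763 CPM in mCherry libraries, and its Duxbl libraries held 121, 8.128, 51.47, 10.97 and 25.79 CPM (difference -5.47, SE 0.47, adjusted p = 2.77e-09). Gm33466 held 129, 1.339, 1.106, 3.468 and 4.99 CPM in Duxbl libraries against 207.8, 305.7 and 463.4 CPM (lowest, median, highest) in mCherry libraries (difference -5.46, adjusted p = 4.07e-07). One Duxbl tube, replicate 1, was the highest of the 5 for both. It held the highest Duxbl value of 58 of the 192 members, against 22 to 41 for the other tubes. Without it 169 members were called lower and 3 higher, and the median was -3.23.

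Other members with large negative differences were Gm48306 (-5.83), Gm47979 (-5.83), Gm8016 (-5.64), Gm36742 (-5.62), Gm9895 (-5.56), 1600025M17Rik (-5.54), Gm40910 (-5.50) and Obox4-ps35 (-5.49). Each had a mean of 60.5 to 128 CPM in mCherry and 0.187 to 1.9 CPM in Duxbl embryos. Obox4-ps35 is named as a pseudogene of the Obox homeobox family, whose many similar copies can share reads, so its value is uncertain. In 15 members every deposited Duxbl late 2C value was under 10, while no member was at 0 in all 5 Duxbl libraries.

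The snoRNA hosts carry the small RNAs that guide chemical modification of ribosomal RNA, and 15 of them are members. All 15 were called higher from early to late 2C in mCherry embryos, as were 190 of the 192 members. Members were chosen for a gain by late 2C in uninjected embryos. At late 2C, 14 of the 15 were called lower in Duxbl than in mCherry embryos and 0 higher, with a median of -2.44, beside 171 of 192 members and 30.1% of all genes tested called lower. These shares of hosts are near those of all members. Of the whole list of 19 tested hosts, 16 were lower and 2 higher. Gas5 (ENSMUSG00000053332, mm39 chromosome 1, 160861992 to 160866109, plus strand) ran from 186.8 over 299 to 385.6 CPM in mCherry libraries and held 136.7, 83.62, 71.48, 111 and 143.4 CPM in Duxbl libraries. No Duxbl library reached the lowest mCherry library, and the difference was -1.46 (SE 0.238, adjusted p = 2.01e-05). Snhg15 (ENSMUSG00000085156, mm39 chromosome 11, 6475591 to 6478779, minus strand) ran from 107.4 over 139.7 to 169.7 CPM and held 28.22, 2.869, 7.264, 18.7 and 19.91 CPM (difference -3.41, SE 0.378, adjusted p = 1.18e-07). Both hosts were thus lower in all 5 Duxbl libraries, Snhg15 by the larger factor.

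Snhg5 ran from 190.1 over 289.4 to 382.7 CPM in mCherry libraries and held 104.8, 4.255, 14.62, 20.2 and 53.24 CPM in Duxbl libraries (difference -3.46). The hosts with the largest negative differences were Snhg17 (-4.76, 54.5 ± 12.2 CPM in mCherry and 1.18 ± 0.955 CPM in Duxbl) and Snhg20 (-3.93, 123 ± 33.6 CPM in mCherry and 7.54 ± 3.71 CPM in Duxbl). Snhg6 (-2.96), Epb41l4aos (-3.03), Dancr (-2.89), Snhg12 (-2.44) and Snhg16 (-2.33) lay between. The smallest were Snhg1 (-1.12, adjusted p = 0.00872), Snhg10 (-1.02), Snhg8 (-1.0, adjusted p = 0.0145) and Zfas1 (-1.26, adjusted p = 0.0312). The call of Zfas1 ended without Duxbl late 2C replicate 3 (difference -0.69, adjusted p = 0.145) or replicate 4 (0.0688), or without mCherry late 2C replicate 1 (0.058) or 4 (0.0557), and that of Snhg8 without Duxbl late 2C replicate 6 (0.0503). Snhg4 was not called at late 2C (0.25, adjusted p = 0.607), with 17.5 ± 8.45 CPM in mCherry and 20.2 ± 7.28 CPM in Duxbl embryos.

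Of the 29 other members with a named symbol, 22 were called lower and 2 higher, with a median of -2.32. Over all 44 named symbols, hosts included, 36 were lower and 2 higher, with a median of -2.34, and of the 148 members without one 135 were lower and 2 higher, with a median of -3.41. Lncenc1, an RNA expressed in embryonic stem cells, ran from 35.07 over 48.47 to 77.34 CPM in mCherry libraries and held 2.138, 0.5259, 0.1443, 0.1406 and 0.2673 CPM in Duxbl libraries (difference -5.09, SE 0.392, adjusted p = 5.57e-10). The pluripotency-associated transcripts Platr22 (-2.95), Platr27 (-2.38) and Platr23 (-1.89) were all called lower, as were 10 of the 21 tested on that list, with 3 higher. Norad, a cytoplasmic RNA that binds Pumilio proteins, stood at 49.1 ± 21.6 CPM in mCherry and 10.2 ± 7.1 CPM in Duxbl embryos (-2.32, adjusted p = 3.46e-05). Mir17hg, host of the miR-17-92 cluster, was also lower (-1.71, adjusted p = 0.00139). Among 7 members whose symbols mark them as antisense to or divergent from a gene, 5 were lower, namely Man2c1os (-4.43), Rab10os (-3.80), Hnf1aos1 (-3.55), Epb41l4aos (-3.03) and Sp3os (-1.03). Kank4os (-1.54, adjusted p = 0.0782) and Oip5os1 (-0.43, adjusted p = 0.224), the latter also known as Cyrano, were not called. Kank4os was called lower under 6 of 21 alternatives (adjusted p 0.00853 to 0.0423 in those 6). Of 132 tested rows with such symbols, 30 were lower and 35 higher. Trmt61b here is a row of lncRNA biotype (ENSMUSG00000085492) that bears a protein-coding gene's symbol and overlaps another row, with a difference of -4.18. Mexis, which lies near the cholesterol exporter gene Abca1, had a difference of -3.68.

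Malat1, an abundant RNA of nuclear speckles, had the largest difference among the 4 members that were higher in Duxbl than in mCherry embryos. Malat1 (ENSMUSG00000092341, mm39 chromosome 19, 5845718 to 5852700, minus strand) ran from 94.17 over 113.6 to 207.4 CPM in mCherry libraries and held 390.2, 285.6, 737.4, 510.2 and 454.5 CPM in Duxbl libraries. All Duxbl values were above all mCherry values, and the difference was 1.90 (SE 0.303, adjusted p = 1.54e-05). It made up 19.01% of the summed level in Duxbl embryos. Neat1, the scaffold RNA of paraspeckles and neighbour of Malat1 on chromosome 19, ran from 1.24 over 10.87 to 27.4 CPM in mCherry and held 27.93, 14.44, 37.18, 15 and 13.32 CPM in Duxbl libraries. Its groups overlapped and it was not called (0.89, adjusted p = 0.199). With replicate number as a block it was called (1.11, adjusted p = 0.037). Of the 5 nuclear lncRNAs tested, 3 were higher and 0 lower.

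Gm49066 held 54.39, 51.64, 111.2, 61.81 and 61.48 CPM in Duxbl libraries against 16.27, 23.89 and 45.25 CPM (lowest, median, highest) in mCherry libraries (difference 1.30, SE 0.309, adjusted p = 0.00108). Gm9856 was higher by 1.11 (58.4 ± 18 against 27.4 ± 13.1 CPM, adjusted p = 0.00683). Chaserr, an RNA encoded beside and overlapping the chromatin remodeller gene Chd2, held 81.89, 45.85, 22.18, 80.32 and 100.1 CPM in Duxbl libraries against 22.53, 34.35 and 39.41 CPM in mCherry libraries. Its difference of 0.87 was at the limit of the call (adjusted p = 0.0498), overlapped between groups, and was no longer called under 16 of 21 alternatives (adjusted p 0.0505 to 0.154 in those 16). Gm32913 stood nearest to no difference. Its Duxbl libraries held 69.26, 54.46, 84.37, 46.39 and 81.61 CPM, within or close to the 52.85 to 91.99 CPM of mCherry libraries (0.089, adjusted p = 0.78). Gm10076 (-0.097), Gm26542 (0.11), 1700096K18Rik (-0.12) and Dleu2 (-0.25), host of the miR-15a and miR-16-1 genes, were also not called. A p that misses the threshold does not show that these levels were equal.

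**Figure D3:**
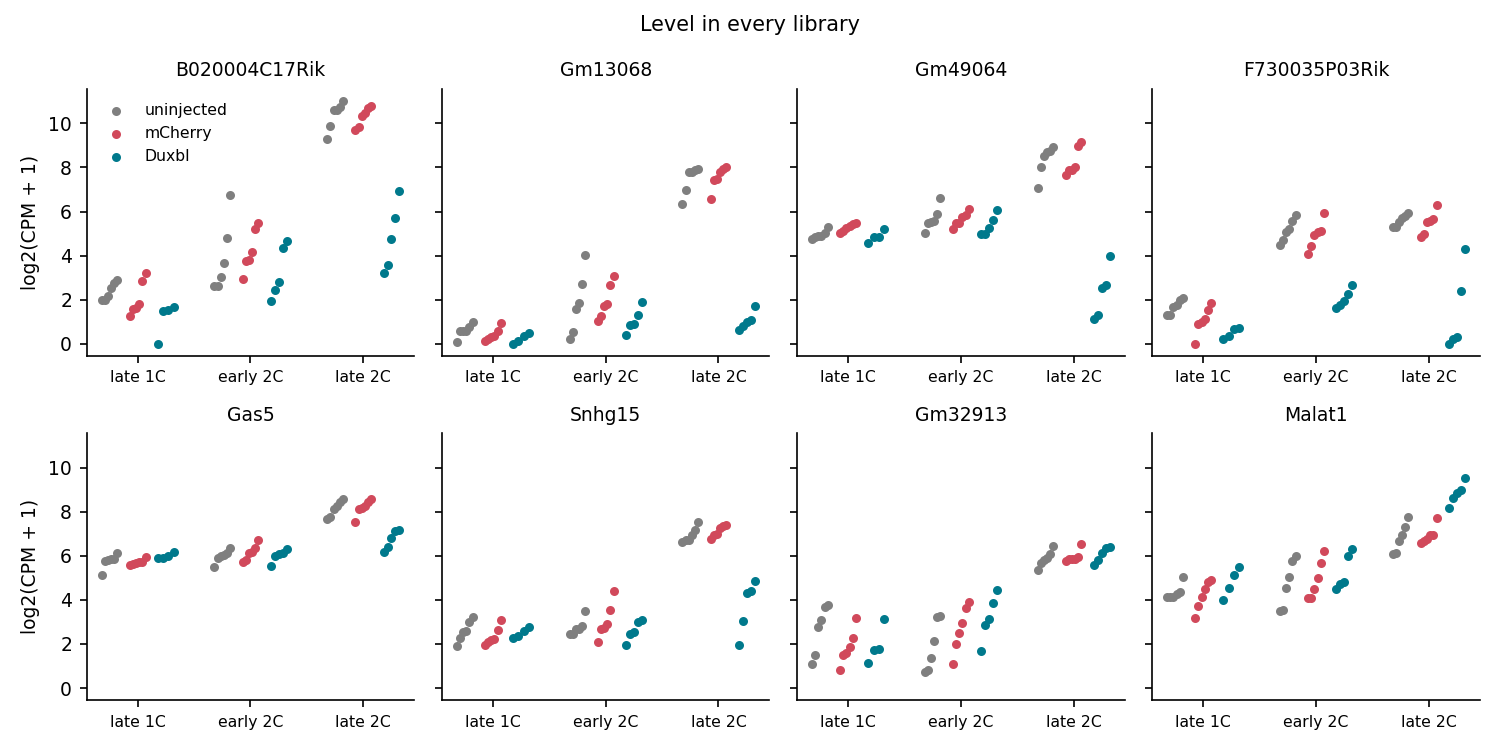
Level of 8 of the lncRNAs as log2(CPM + 1) in every library, by stage and group, with points ordered by value within a group. B020004C17Rik, Gm13068, Gm49064, Gas5 and Snhg15 separate Duxbl from both control groups at late 2C, F730035P03Rik already at early 2C, Gm32913 does not, and Malat1 is higher in Duxbl embryos.

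The steps between stages were also tested within Duxbl embryos. From late 1C to early 2C, 0 members were called in either direction (limma; background 0.063% of 26995 genes higher and 0.793% lower), with 24 at an unadjusted p under 0.05, a median of 0.32 and 0 with voom weights. That median was near the 0.31 of mCherry embryos in the same step, which had more libraries. This step was not tested between Duxbl and mCherry embryos. From early to late 2C, 57 were called higher and 14 lower (background 20.1% higher and 19.7% lower), with a median of 0.31. Over the whole course from late 1C to late 2C, 73 were higher and 8 lower (background 22% and 21.1%), with a median of 0.62. The sum of all members rose 3.69-fold from late 1C to late 2C, against 16.4-fold in mCherry embryos. Gt(ROSA)26Sor, the transcript of the Rosa26 locus, rose by 4.05 (1.68 ± 0.57 to 62.1 ± 37.7 CPM), Malat1 by 3.56 (43.1 ± 26 to 476 ± 169 CPM), Gm49066 by 3.03, Chaserr by 2.94 and Gm32913 by 2.86. Gas5 rose by 0.73 (64 ± 11.8 to 109 ± 31.7 CPM, adjusted p = 0.004), and 9 of the 15 snoRNA hosts were called higher. Members that started at a measurable level and fell included Gm49064 (-3.06, 42.7 ± 15.4 to 5.51 ± 5.47 CPM), Gm48762 (-2.99, 10.8 ± 4.15 to 0.418 ± 0.202 CPM), Gm41409 (-1.77) and Gm5 (-1.45, 32.2 ± 9.51 to 14.2 ± 14.5 CPM). In mCherry embryos the same 4 rose in this step by 2.63, 2.45, 3.16 and 2.50.

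Gt(ROSA)26Sor was nonetheless lower than in mCherry embryos at late 2C. It held 87.41, 4.016, 44.06, 83.51 and 91.73 CPM in Duxbl libraries against 64.77, 112.6 and 231.1 CPM (lowest, median, highest) in mCherry libraries (-1.47, adjusted p = 0.0248). The groups overlapped, and the call ended without Duxbl late 2C replicate 3, the lowest library (-0.69, adjusted p = 0.0929), and without mCherry late 2C replicate 4 (0.0565) or 5 (0.0518).

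The difference between Duxbl and mCherry embryos itself changed between early and late 2C. In a test of that change, 164 of 192 members were called lower and 2 higher (limma; background 25% of 26995 genes lower and 21.3% higher), with a median of -2.77. The background genes were not chosen for a gain. The members were, and the mCherry rise that enters this test largely follows from that choice, which favours lower calls. The strongest were Gm48306 (-6.28, SE 0.659, adjusted p = 1.78e-09) and 1600025M17Rik (-6.24), followed by Gm47979 (-6.09). F730035P03Rik was not called (-1.16, adjusted p = 0.185), and its difference had been called at early 2C. The 2 higher members were Malat1 (1.56, adjusted p = 0.0152) and EU599041 (1.18, SE 0.483, adjusted p = 0.0433). EU599041 held 58.43, 78.08, 171.4, 51.36 and 66.42 CPM in Duxbl libraries and ran from 15.68 over 49.71 to 82.52 CPM in mCherry libraries at late 2C, where the groups overlapped and were not called apart (0.89, adjusted p = 0.107). With library totals as the only scaling, 0 members were called higher in this test.

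**Figure D4:**
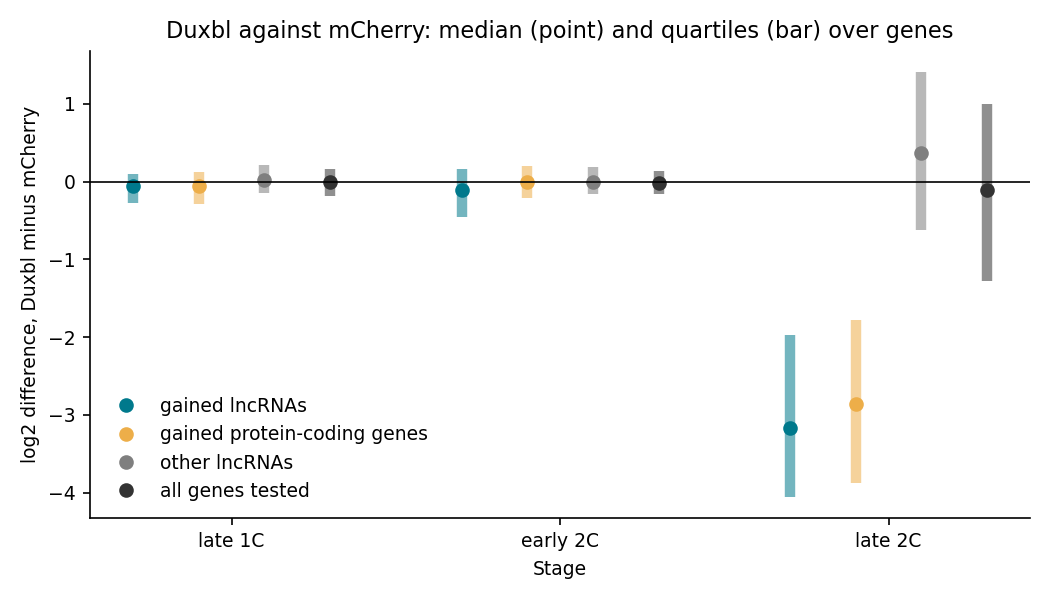
Median (point) and quartiles (bar) of the log2 difference, Duxbl minus mCherry, at each stage, for the gained lncRNAs, gained protein-coding genes, other lncRNAs and all genes tested. The medians of gained lncRNAs and gained protein-coding genes are near 0 at late 1C and early 2C and are -3.17 and -2.86 at late 2C, where other lncRNAs are at 0.36.

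Protein-coding genes that pass the same rule of gain were also mostly lower at late 2C. Of 2181, 1957 were called lower and 22 higher in Duxbl embryos, with a median of -2.86. That is 89.7% lower, beside 89.1% of the lncRNAs. Among the lncRNAs the size of the difference varied with orientation. Head-to-head members had a median of -2.15 (50 of 55 lower and 2 higher), overlapping members -3.40 (37 of 43 lower and 1 higher) and the rest -3.67 (84 of 94 lower and 1 higher). The 92 members with no overlapping row had a median of -3.41 (79 lower, 2 higher), and the 100 with one had -2.95 (92 lower, 2 higher). These medians are descriptions over transcripts, without a test.

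Each lncRNA was set beside its nearest protein-coding gene. The lncRNAs were chosen for their gain, while 15 of 55 head-to-head neighbours (27.3%) and 42 of all 192 (21.9%) pass the same rule. Among 55 head-to-head pairs the median was -2.15 for the lncRNA and -0.82 for the neighbour. In these pairs 27 neighbours were called lower and 12 higher, beside 30.1% of all genes tested called lower and 25.6% higher. The lncRNA had the lower signed value in 44 pairs and the larger absolute difference in 40. In the 15 pairs whose neighbour was gained the medians were -2.66 and -2.13, and in the 40 others -2.06 and -0.27. Across these pairs Pearson's r was 0.271 and Spearman's rho 0.367. They share libraries and, in overlapping pairs, may share reads, so this is a description. Gas5 and Zbtb37, a zinc finger gene whose start is 427 bases away, differed in opposite directions, and Zbtb37 stood at 61.8 CPM in mCherry and 141 CPM in Duxbl embryos (1.20, adjusted p = 0.000182). Snhg1 and Slc3a2, an amino acid transporter subunit gene 106 bases away, did so too, with Slc3a2 at 131 and 346 CPM (1.43, adjusted p = 3.9e-05). Gm50340 and Incenp, a chromosomal passenger gene 139 bases away, were both lower in Duxbl embryos, Incenp with a difference of -3.07 (88.1 CPM in mCherry and 10.5 CPM in Duxbl). Gm49066 and Ptk2, the focal adhesion kinase gene 31 bases away, were both higher, Ptk2 with a difference of 1.48 (49.1 CPM in mCherry and 139 CPM in Duxbl). Gm9856 was higher while Tmem42, 246 bases away, was lower (-1.64, adjusted p = 0.00159).

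For abundant head-to-head members the neighbour was often not called. Rab26 beside Gm33508 (-0.72, adjusted p = 0.192), Ankrd11 beside 2810013P06Rik (-0.25, adjusted p = 0.508), Rab30 beside 4632427E13Rik (-0.58, adjusted p = 0.287) and Setd5 beside Gt(ROSA)26Sor (0.056, adjusted p = 0.892) were such cases. Of these lncRNAs, 4632427E13Rik was itself not called in the main fit, and was called lower under 2 of 21 alternatives. 2010110K18Rik (-1.15) and Cdc25c, a mitotic phosphatase gene 276 bases away (-3.8), were both lower. The 41 overlapping pairs had medians of -3.43 and -0.94 with r = 0.13, and the 90 other pairs -3.58 and -0.29 with r = 0.108. Over all 186 pairs with 179 distinct neighbours, 76 neighbours were called lower and 44 higher (background 30.1% of all genes tested lower and 25.6% higher). In these pairs 157 lncRNAs had a lower signed value than their neighbour, and 147 had a larger absolute difference. Of the 42 pairs with a gained neighbour, the lncRNA had the larger absolute difference in 27, and of the 144 others in 120.

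**Figure D5:**
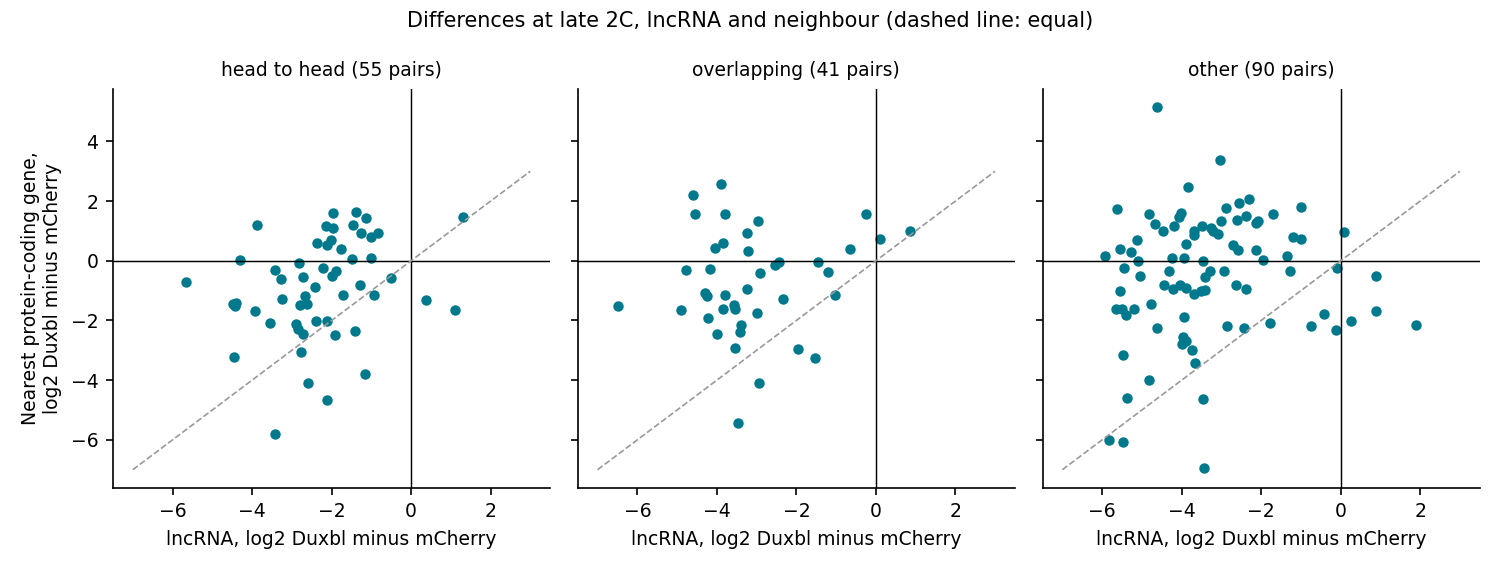
Log2 difference at late 2C, Duxbl minus mCherry, of each lncRNA (x axis) and of its nearest protein-coding gene (y axis), in 55 head-to-head, 41 overlapping and 90 other pairs, with a dashed line of equal differences. Most points lie left of 0 and above the dashed line, where the lncRNA has the lower signed value (157 of 186 pairs).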

How the data were processed

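Pools of embryos were sequenced. Per the labels' protocols, SMART-Seq v4 and Nextera XT were used, which keep no strand. The submitters' processing notes name DESeq, DESeq2 1.36.0, featureCounts 2.0.4, STAR 2.7.10a, Picard 3.0.0, Trimmomatic 0.39 and mm39, without roles. Each deposited value is a whole number, treated here as a score: low values move in steps of 0.554 to 2.004 and 19 of 50 libraries skip whole numbers, as reads scaled per library and rounded would. The depths given are estimates from those steps.

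A count test had been planned for raw counts. Since the values are scaled, limma 3.58.1 (R 4.3.3) was used, on log2(CPM + 1) with trimmed-mean factors (30% and 5% trimmed) over all libraries and a trended, robust prior, two-sided. A gene was tested where its deposited value reached 10 in a number of libraries equal to the smallest group. Each stage was fitted with its 3 groups, and steps between stages with the 6 injected groups, since uninjected libraries chose the members. The fits were tested on simulated data. With trimmed-mean factors 147 of the 192 members pass the rule.

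Named transcripts were those with a named symbol, the 5 most abundant, the 10 lowest and up to 10 highest differences called at late 2C, the early calls, the 5 nearest to no difference, the 8 most abundant head-to-head members and those at the limits. Gm48762, Gm41409, Gm5 and Gm29290 were chosen after their values were seen. Lists were snoRNA hosts, nuclear lncRNAs, pluripotency-associated transcripts, microRNA hosts (6 tested, 2 higher and 2 lower at late 2C), antisense symbols and the X inactivation centre (4 tested, 1 higher). Members and lists were chosen with earlier results of these data known. Same-numbered Duxbl and mCherry tubes deviated together at late 1C (4 pairs, r 0.182 to 0.309, 2 best with their own), where a block changed no call. Alternatives were scaling, pseudocount, filter, voom weights, groups fitted, the replicate block and each replicate left out.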

Additional observations from a re-analysis of the deposited data

Results flagged for a closer look

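Among 196 groups of 4 to 6 libraries tested for 1 library far from the others (the summed level and the named transcripts), 33 were marked, where chance marks about 1 in 20. No explanation was weighed. In uninjected embryos at late 1C, the lowest library had a summed level of 604.4 CPM, with the next at 684.3.

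In Duxbl embryos at late 2C the highest library stood apart for 2810013P06Rik (74.75 CPM, next 25.79), 4632427E13Rik (194.9, next 86.55), Dubr (26.46, next 3.374), EU599041 (171.4, next 78.08), F730035P03Rik (18.91, next 4.321) and Gm33466 (129, next 4.99). The same held for Gm13191 (3.658 CPM, next 0.6237), Gm14742 (5.368, next 0.9801), Gm44693 (5.653, next 0.2673), Gm48306 (5.881, next 0.6237), Gm48399 (1.14, next 0.328) and Gm8016 (3.515, next 0.9801). It also held for Gm9895 (2.138 CPM, next 0.3825), Hnf1aos1 (4.893, next 1.078), Lncenc1 (2.138, next 0.5259), Obox4-ps35 (8.456, next 0.5791), Platr23 (13.07, next 5.32) and Gm49066 (111.2, next 61.81). At early 2C the highest Duxbl library stood apart for Gm47510 (1.374 CPM, next 0.342).

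In mCherry embryos at late 2C the highest library stood apart for Gm14742 (120.9 CPM, next 63.45), Gm32913 (91.99, next 61.17), Gm48306 (234.8, next 128.3), Gm8016 (352.7, next 148.7) and Gm9856 (53.53, next 27.51). So did that for Malat1 (207.4 CPM, next 123.6), Man2c1os (38.25, next 24.64), Obox4-ps35 (152.9, next 85.4) and Platr27 (39.77, next 30.93). The lowest stood apart for Dleu2 (7.179 CPM, next 22.45) and Snhg6 (38.89, next 59.97). At the earlier stages the highest mCherry library stood apart for Gm14742 at late 1C (0.5686 CPM, next 0.1736) and Gm48399 at early 2C (3.968, next 1.948).

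The difference between Duxbl and mCherry embryos was itself different between early and late 2C, lower at late 2C in 164 of 192 members and higher in EU599041 (by 1.18) and Malat1 (by 1.56), by the limma interaction test. The choice of members for a gain favours lower calls in that test.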

How the results depend on the processing

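Of 530 alternative values of counts and medians, 484 stayed within 1.5 times or 1 SD. At early 2C the 5 members called lower became 10 with a pseudocount of 0.1 CPM, 1 with 5 CPM, 3 with no filter, 1 with voom weights, 9 with a replicate block and 12 with only the 2 groups compared, and ran from 2 to 10 with each replicate left out. At late 2C the median difference was -3.96 with 0.1 CPM, -1.99 with 5 CPM and -4.12 with voom weights, and leaving out each replicate gave 164 to 171 lower, 3 to 4 higher and medians of -3.23 to -3.08. At late 1C the leave-one-out counts were 0 to 1 lower (1 without mCherry replicate 1) and medians -0.125 (without Duxbl replicate 6) to -0.0563. The 16 members higher in mCherry embryos by early 2C became 6 with 5 CPM and 10 to 17 with each replicate left out (10 without mCherry early 2C replicate 5). In Duxbl embryos that count of 0 became 1 with 0.1 CPM and 3 with the replicate block. From early to late 2C in Duxbl embryos the 14 lower became 8 with median-of-ratios factors, 7 with 5 CPM and 9 to 14 with each replicate left out (9 without Duxbl early 2C replicate 7). From late 1C to late 2C the 8 lower became 4, 3 and 5 to 10 (5 without Duxbl late 1C replicate 4). The 2 members higher in the stage interaction became 0 with library totals, 1 with no filter, voom weights or the replicate block, and 1 to 2 with each replicate left out. Same-numbered Duxbl and mCherry tubes correlated at 0.0605 to 0.303 at early 2C (4 of 5 best with their own). At late 2C they correlated at -0.00495 to 0.0844 (3 of 5). The labels do not say whether such tubes share a collection, and the main fits left the pairing out. Among single transcripts 1913 values were the same, 65 lost a call and 10 gained one. Direction turned only in uncalled transcripts: 1700096K18Rik (-0.36 to 0.37 with each replicate left out, above 0 without Duxbl late 2C replicate 3), Gm10076 (-0.37 to 0.15 with each replicate left out, 0.0017 without mCherry late 2C replicate 6, 0.15 without Duxbl late 2C replicate 1), Gm26542 (-0.12 with library totals, -0.14 to 0.39 with each replicate left out, below 0 without Duxbl late 2C replicate 1) and Gm32913 (-0.14 with library totals, -0.00083 to 0.21 with each replicate left out, below 0 without Duxbl late 2C replicate 4). The cause of these changes was not tested. Factors from the fitted libraries alone were an alternative chosen after seeing the data and gave a late 2C median of -3.29. Head-to-head members numbered 70 within 5000 bases. How far depth limits the values of low members was not tested.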
